A study of Mus musculus with 2 samples.

Results

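Expression of 10 genes of the oxidative stress and glutathione defence was followed in mouse epidermis with and without the vitamin D receptor gene Vdr in keratinocytes. The genes were Nfe2l2, Keap1, Gclc, Gclm, Gsta4, Gstm1, Gpx2, Txnrd1, Nqo1 and Hmox1, and they were chosen by name (called the members below). Every probe that the array table assigned to these symbols was taken, which gave 16 of 25697 probes. The epidermis came from the back skin of pups at postnatal day 5 on a C57BL6 background. The control pool (CON) was made from littermates with the genotype VDR fl/fl. The knockout pool (KO) was made from VDR fl/fl pups that also carried Cre driven by the keratin 14 promoter, so the deletion was aimed at basal keratinocytes and their progeny and not at other cells of the epidermis. Both groups carried the floxed alleles, and a Cre-only group was not analysed here. RNA from 3 mice was combined into 1 pool per genotype and each pool was read on 1 bead array, so the spread between mice was not measured. Differences are therefore given by size and without a test, and precision is limited by there being 1 array per genotype.

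The pathway answers to reactive oxygen and to electrophiles. Its transcription factor NRF2, encoded by Nfe2l2, is held at a low level by KEAP1, an adaptor that hands it to a CUL3 ubiquitin ligase. When KEAP1 is modified on its cysteines, NRF2 accumulates, binds antioxidant response elements together with small MAF proteins, and switches on genes for glutathione synthesis, glutathione conjugation, thioredoxin reduction, quinone reduction and haem breakdown. In skin this system protects keratinocytes from ultraviolet light and chemical stress, and mice without Keap1 are known for hyperkeratosis of the oesophagus and forestomach.

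The core of the antioxidant response element, TGACNNNGC, was searched on both strands in the promoters of a RefSeq table (GRCm38.p6, 250 bases before to 50 bases after each gene start). The table held promoters of 7 of the 10 genes, and none for Hmox1, Gclc and Gsta4. The core lay in 3 of the 7 genes, Nfe2l2, Gclm and Txnrd1, and in 14.0% of all 27025 genes in the table. A gene with several promoters was counted when any of them held the core, and Txnrd1 also had promoters without it. Counted by promoter, the core lay in 3 of 10 member promoters and in 12.4% of all 32851 promoters. The sequences are shown because this core is the letter pattern that joins the regulator to its targets, and each is printed on the strand of its gene with the core in capitals (a core on the opposite strand reads as its reverse complement).
Nfe2l2, chr2:75704883-75704913, minus strand: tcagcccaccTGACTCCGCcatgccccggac
Gclm, chr3:122245411-122245443, plus strand: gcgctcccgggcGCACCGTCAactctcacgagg
Txnrd1, chr10:82859102-82859134, plus strand: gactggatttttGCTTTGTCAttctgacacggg
The promoters of Keap1, Nqo1, Gstm1 and Gpx2 did not hold these letters in this window. A match is a description of the letters and not of binding.

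A probe was called detected when its detection p-value, which compares it with the negative controls of the array, was under 0.01. Of the 25697 probes 44.8% were detected in CON and 44.4% in KO, with a median raw signal of 153.6 and 158.5. Keratinocyte markers were bright, as Krt14 (30158.0 in CON, 33165.4 in KO) and Krt10 (30955.8 and 33073.8) show, and 8 of 9 such markers on the array were detected. After normalization the log2 changes (KO minus CON) of Krt14 and Krt10 were 0.05 and 0.01. Those of the 8 detected markers were positive in 4 and negative in 4, from -0.38 for Ivl to 0.16 for Trp63. The brightest Vdr probe read 1913.0 (CON) and 2442.1 (KO), a log2 change of 0.33. The other Vdr probes, both detected in both pools, went opposite ways, with 0.37 for one (1203.7 and 1559.6) and -0.23 for the dimmest (193.0 and 189.0). The sources used here do not say whether the Vdr probes lie in the deleted part, so they do not check the labels.

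Among the defence genes 8 of 10 were detected, all in both pools. Hmox1 was the single gene that passed the 1.5-fold rule. It fell 1.59-fold in the pool labelled KO, while no member rose by 1.5-fold. Among all 8865 genes detected in at least 1 pool, 2.28% were lower and 3.1% higher by the same rule, so 1 of 8 lower is a single gene against that background. At 2-fold 0.135% of all detected genes were lower and 0.451% higher, and no member passed. Log2 changes (KO minus CON, after background correction and quantile normalization with neqc in limma) ran from -0.67 to 0.40 over the 8 detected genes, with a median of -0.05 beside 0.002 over all detected genes. Changes were positive in 3 and negative in 5. The SD of the log2 change across all detected genes was 0.30.

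**Figure D1:**
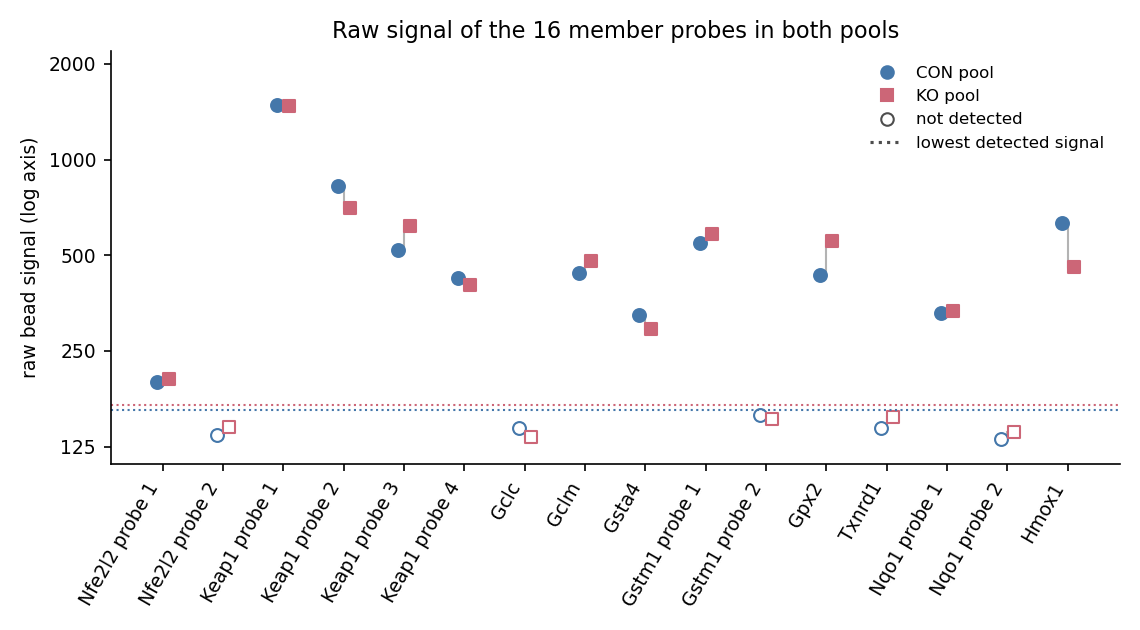
Raw bead signal (log axis) of the 16 member probes in the CON pool (circles) and the KO pool (squares), 1 array each, with open symbols for probes not detected and dotted lines at the lowest signal of any detected probe in CON (163.1) and KO (169.2). Hmox1 has the widest gap downward, from 632.8 to 458.7, and 5 probes lie under the dotted lines in both pools. Heights are not comparable between probes.

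The regulators Nfe2l2 and Keap1 differed little between the pools. The brighter Nfe2l2 probe read 199.8 in CON and 204.2 in KO, only slightly above the detection limit, and its log2 change was -0.06. The second Nfe2l2 probe read 136.0 and 144.4 and was detected in neither pool. Keap1 was read by 4 probes, all detected in both pools. Its brightest probe read 1487.2 in the CON pool and 1479.6 in the KO pool, for a log2 change of -0.05. The other Keap1 probes read 828.7 and 704.3, 521.0 and 618.1, and 423.1 and 403.7.

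The 4 Keap1 probes did not move together. Their log2 changes were -0.33, -0.16, -0.05 and 0.26, so 1 was positive and 3 were negative, over a range of 0.59. Among 90 genes with 4 probes detected in both pools the median of this range was 0.41, and 20 of the 90, Keap1 included, had a range at least as wide as that of Keap1. Over all 2031 genes with at least 2 probes detected in both pools the median range was 0.22. These ranges cover differences between probes and not between mice, and members with a single detected probe have no such range.

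The genes of glutathione synthesis gave 1 measured value. GCLC is the catalytic and GCLM the modifier subunit of glutamate-cysteine ligase, the rate-limiting enzyme of glutathione synthesis. Gclm read 440.6 in the CON pool and 480.4 in the KO pool, for a log2 change of 0.11. The only Gclc probe read 143.1 and 133.8 with detection p-values of 0.221 and 0.827, which is not above background, so the catalytic subunit gave no fold.

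The enzymes that use glutathione went both ways, within the 1.5-fold limit. Gsta4 encodes an alpha class transferase known for conjugating the lipid peroxidation product hydroxynonenal. It read 325.0 in the CON pool and 292.8 in the KO pool, for a log2 change of -0.35. Gstm1, a mu class transferase, read 544.8 and 583.5 with its brighter probe, a log2 change of 0.07, while its second probe read 156.7 and 153.1 and was not detected. Gpx2, a selenium-dependent peroxidase best known from the gut epithelium, read 434.7 in CON and 553.5 in KO. Its log2 change of 0.40 (1.32-fold) was the highest of the members and did not pass the rule. When the detected genes were ranked by signal and cut into 10 equal classes, the class of Gpx2 held 887 genes, of which 53, Gpx2 included, had a change at least as high. Mu class transferases are close relatives, and cross-hybridization between them was not measured.

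Of the thioredoxin, quinone and haem enzymes only Hmox1 differed by 1.5-fold. Txnrd1 encodes the cytosolic thioredoxin reductase, and its only probe read 143.0 in CON and 154.7 in KO with detection p-values of 0.223 and 0.0940, so it was not above background in either pool. Nqo1, the quinone reductase often used as a readout of NRF2 activity, read 328.5 and 334.6 with its brighter probe, a log2 change of -0.05. Its second probe read 132.4 and 138.9 and was not detected. The NRF2 target genes Nqo1, Gclm and Hmox1 thus had log2 changes of -0.05, 0.11 and -0.67. The other detected members beside the regulators ran from -0.35 for Gsta4 to 0.40 for Gpx2.

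Hmox1 encodes the inducible haem oxygenase, which breaks haem down to biliverdin, carbon monoxide and iron. Its only probe read 632.8 in CON and 458.7 in KO, although the median raw signal of the detected genes was higher in KO (508.9) than in CON (489.8). The log2 change was -0.67. Of the 8865 detected genes 284 had a larger absolute change. In the signal class that held Hmox1 1.81% of genes were lower by 1.5-fold, and 11 of 886, Hmox1 included, had a fall at least as large. The authors' normalized values still contain the background, and there Hmox1 read 647.5 and 459.5, a 1.41-fold difference that did not pass the rule. In those values 0.169% of the detected genes were lower and 0.541% higher by 1.5-fold.

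**Figure D2:**
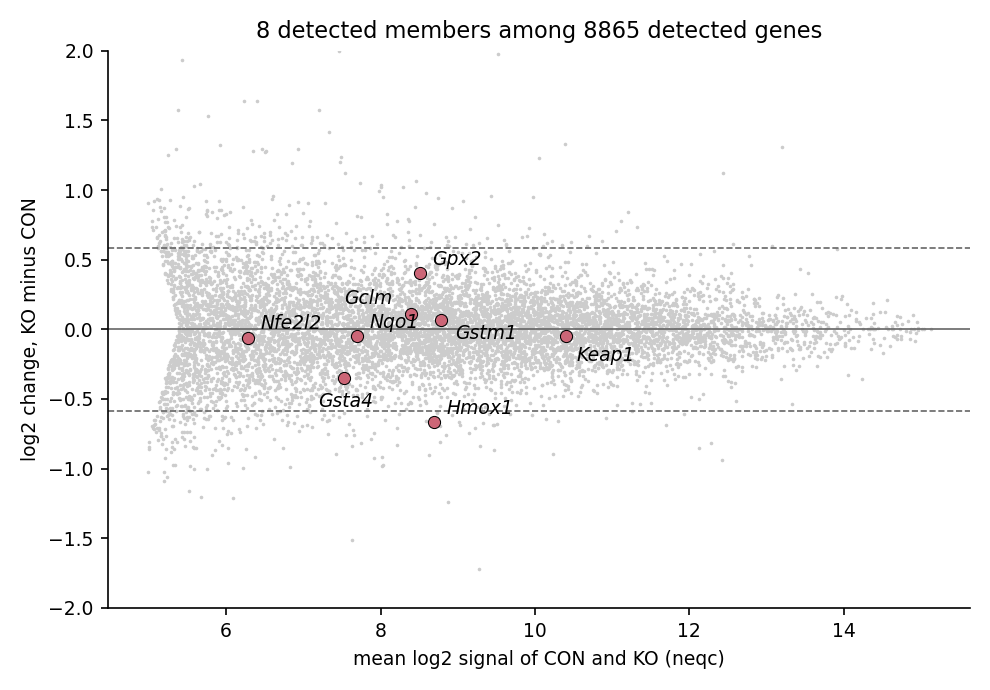
Log2 change (KO minus CON) against the mean log2 signal for the 8865 detected genes (grey) and the 8 detected members (red, labelled), with dashed lines at 1.5-fold. 7 genes with a log2 change beyond 2 in size lie outside the plotted range. Hmox1 at -0.67 lies below the lower line and the other members between the lines.

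Hmox1 is expressed by many cell types, and markers of other cells were read beside it. Of 3 red cell genes read here only Hba-a1, an alpha globin gene, was detected. Hba-a1 read 783.1 in the CON pool and 546.9 in the KO pool, for a log2 change of -0.69, and the summed raw signal of the 3 genes was 1087.1 and 848.3. Hbb-b1 and Alas2 were not above background. Leukocyte and Langerhans cell markers did not move that way: 6 of 9 were detected, their median log2 change was 0.11, and their raw signals summed to 19130.9 (CON) and 20488.6 (KO), with Ptprc, Lyz2 and H2-Aa not above background. Of 6 fibroblast genes 2 were detected, Col1a1 with a log2 change of -0.83 and Dcn of -0.16, and the summed raw signal was 1438.8 and 1367.5. Col1a1 was dim, with 202.3 in CON and 173.1 in KO, and changed by -0.31 in the authors' normalized values. None of 5 endothelial markers was detected. Skeletal muscle genes were higher at low signal: 4 of 6 were detected, with summed raw signals of 986.6 (CON) and 1193.9 (KO), and Myl1 read 169.2 and 278.6, while Myh8 and Acta1 were detected only in KO, at least 1.53-fold and 1.04-fold higher. Sebocyte genes went both ways, with 7 of 7 detected and sums of 10633.4 and 11328.3, from a log2 change of -0.90 for Awat2 to 0.98 for Fabp5 and 1.12 for Mc5r, and Scd3 was not detected in KO. Of 6 melanocyte genes 4 were detected, with log2 changes between -0.33 and -0.09, with sums of 3581.3 and 3369.1. Of 4 adipocyte genes only Cfd was detected, at -0.44, with sums of 647.9 and 612.1. Cfd was also dim (204.1 in CON and 189.3 in KO) and changed by -0.18 in the authors' normalized values. The part of these cells in the Hmox1 value was not tested. The sums are raw signals, not scaled between the arrays, and also hold the background of genes that were not detected. Some rest largely on bright genes, such as Cd74 (log2 change -0.03) and H2-Ab1 (0.05) among leukocyte markers and Scd1 (0.08) among sebocyte genes. The sums do not measure the amount of a cell type. In bulk RNA fewer cells of a type and less RNA per cell cannot be told apart.

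The wider pathway was described with 10 lists of redox genes, 121 genes in all, of which 118 were on the array and 92 were detected. By the 1.5-fold rule 1 of the 92 was higher (1.09%) and 2 were lower (2.17%), against 3.1% and 2.28% of all detected genes. The median log2 change over the 92 was 0.02. The lower genes were Hmox1 and Sod3, and the higher gene was Slc7a11. Since Slc7a11 was not detected in CON, its fold is a bound, at least 1.14-fold, and with it at that bound 0 of the 92 were higher.

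**Figure D3:**
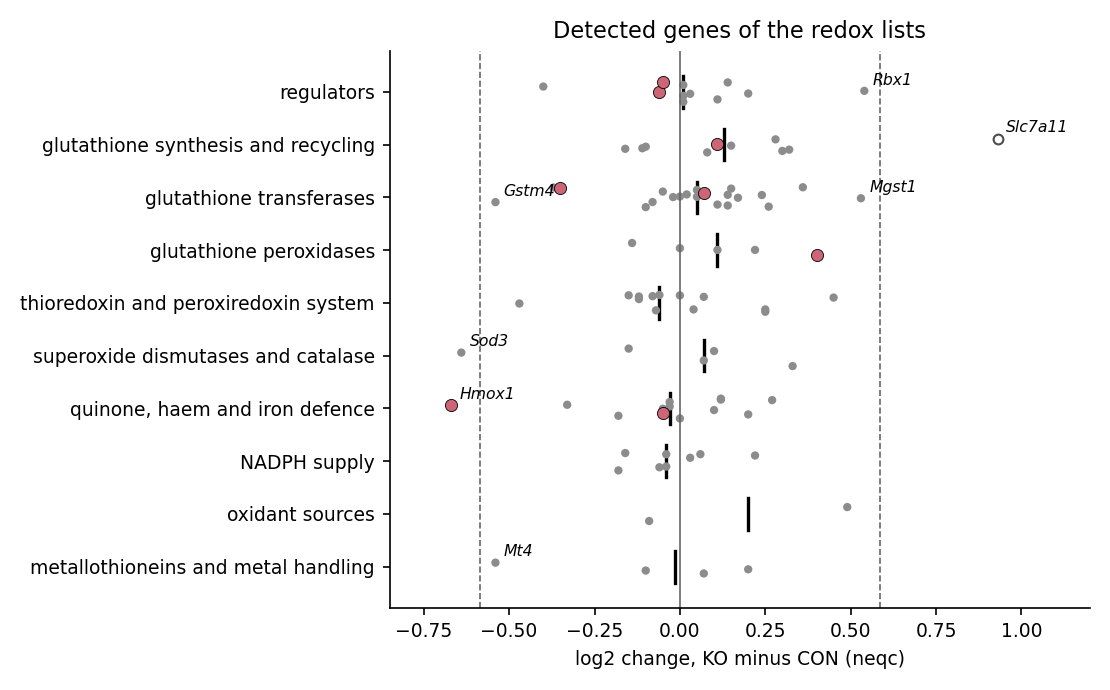
Log2 change (KO minus CON) of each detected gene in the 10 redox lists, with members in red, the list median as a black bar and dashed lines at 1.5-fold. Slc7a11 (open symbol) was not detected in CON, so its position depends on the background model and is no bound. List medians lie between -0.06 and 0.20, the latter over 2 genes.

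In the list of regulators 0 of 11 detected genes passed the rule, with a median log2 change of 0.01. The list is not limited to genes that act on NRF2, since it also holds Arnt. Rbx1, the RING subunit of cullin ligases including the one that acts on NRF2, read 3781.2 (CON) and 5636.8 (KO), a 1.46-fold difference. The second Rbx1 probe read 2516.7 and 2526.9, a log2 change of -0.05, so the mean over both probes was 0.24. Cul3, the scaffold of that ligase, read 7974.2 and 8462.4, a log2 change of 0.03. The repressor gene Bach2 had a log2 change of 0.20, Nfe2l3, a relative of Nfe2l2, of 0.14, and Arnt, the partner of the aryl hydrocarbon receptor, of -0.40 at a dim signal. Bach1, a repressor of Hmox1 transcription, had a log2 change of 0.01.

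In glutathione synthesis and recycling 1 of 10 detected genes passed the rule and the median was 0.13. That gene was Slc7a11, the cystine transporter that feeds glutathione synthesis, with a raw signal of 142.4 in CON, not above background, and 174.4 in KO. The glutaredoxin genes Glrx3, Glrx2 and Glrx5 had log2 changes of 0.32, 0.30 and 0.28. The brightest of the list, Glrx, read 14071.4 and 13922.9.

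Of 21 detected glutathione transferase genes 0 passed, with 13 positive and 7 negative changes and a median of 0.05. Mgst1, a microsomal transferase, came closest upward, with 5795.1 in CON and 8711.7 in KO, which is 1.44-fold, and its second probe had a log2 change of 0.38. Gstm4 (log2 change -0.54), Gstm6 (-0.37) and Gsta3 (0.36) were all dim. In the authors' normalized values their log2 changes were -0.19, -0.20 and 0.16. Of 5 detected glutathione peroxidase genes 0 passed. Beside Gpx2 these were Gpx8 (0.22), Gpx7 (0.11), Gpx1 (0.00) and Gpx4 (-0.14), and Gpx1, the ubiquitous cytosolic form, read 17011.6 and 17754.3.

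The 13 detected genes of the thioredoxin and peroxiredoxin system had a median of -0.06 and 0 passed. Txn1, thioredoxin itself, had a log2 change of 0.45 at a dim signal (213.4 in CON and 257.5 in KO). The peroxiredoxin genes Prdx1 and Prdx4 had changes of 0.25 each, and Sesn2, a stress-induced sestrin, of -0.47, also at a dim signal. In the authors' normalized values Txn1 changed by 0.22 and Sesn2 by -0.23. The further probes of Txn1 and Sesn2 were detected in neither pool. Srxn1, the sulfiredoxin gene and a known NRF2 target, read 509.2 and 485.3, a log2 change of -0.15. All 5 superoxide dismutase and catalase genes were detected. Sod3, the extracellular dismutase, read 188.6 in CON and 170.4 in KO and fell 1.56-fold at a signal close to the detection limit, but differed 1.17-fold in the authors' normalized values. Sod2, the mitochondrial dismutase, had a log2 change of 0.33, Cat, catalase, of -0.15, and Ccs, the copper chaperone of the cytosolic dismutase, of 0.10.

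Beside Hmox1 the haem and iron genes differed little. Hmox2, the constitutive haem oxygenase, read 878.8 in CON and 884.6 in KO. Blvrb, a biliverdin reductase that is abundant in red cells, had a log2 change of -0.18 and Blvra, the other reductase, of 0.12. Fth1, the ferritin heavy chain, read 12471.1 and 12696.6, while the only Ftl1 probe was not above background. Over the 13 detected genes of quinone, haem and iron defence the median was -0.03 and 1 was lower. Akr1b3 had a log2 change of -0.33, Cbr1 of 0.27 and Nqo2 of 0.20.

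The 8 genes of NADPH supply, which provides the electrons for glutathione and thioredoxin reduction, were all detected and 0 passed. Their median was -0.04, from -0.18 for Pgls to 0.22 for Me1, with Pgd at -0.16 and Idh2 at 0.06.

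The antioxidant response element core was then set beside the changes of the listed genes. The RefSeq table held promoters of 104 listed genes, and 22.1% of these held the core, beside 14.0% of all genes. Hmox1 and Sod3, the listed genes that were lower by the 1.5-fold rule, had no promoter there and were left out of this comparison. The 18 detected genes with the core had a median log2 change of 0.04, and the 65 without it 0.03. Among genes named above that held it were Mgst1, Gsta3, Prdx1, Me1 and Blvra, with positive changes, and Sesn2, Arnt, Pgd and Srxn1, with negative ones. The 3 sequences below were picked after their values were seen, to show the core in genes with changes of either sign.
Mgst1, chr6:138140459-138140491, plus strand: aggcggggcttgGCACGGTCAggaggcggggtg
Prdx1, chr4:116685454-116685486, plus strand: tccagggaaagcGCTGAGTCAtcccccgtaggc
Sesn2, chr4:132510472-132510504, minus strand: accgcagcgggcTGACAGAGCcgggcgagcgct
These genes had log2 changes of 0.53, 0.25 and -0.47.

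The ways of processing compared here moved the sizes of the changes but not the sign of any detected member. Each of them scaled the arrays to each other. In the raw signals Nfe2l2 (199.8 in CON, 204.2 in KO) and Nqo1 (328.5 and 334.6) were slightly higher in KO, so their small negative changes depend on that scaling. Over 6 ways of processing, Hmox1 ranged from -0.68 to -0.49, Gpx2 from 0.28 to 0.40 and Gsta4 from -0.35 to -0.20. Nfe2l2, Keap1, Nqo1, Gclm and Gstm1 stayed between -0.07 and 0.11. Hmox1 passed the 1.5-fold rule in the 4 ways that corrected the background and not in the others. One of the 4, the mean of detected probes, repeats the reported value by construction for every member except Keap1. The other members have a single detected probe each.

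**Figure D4:**
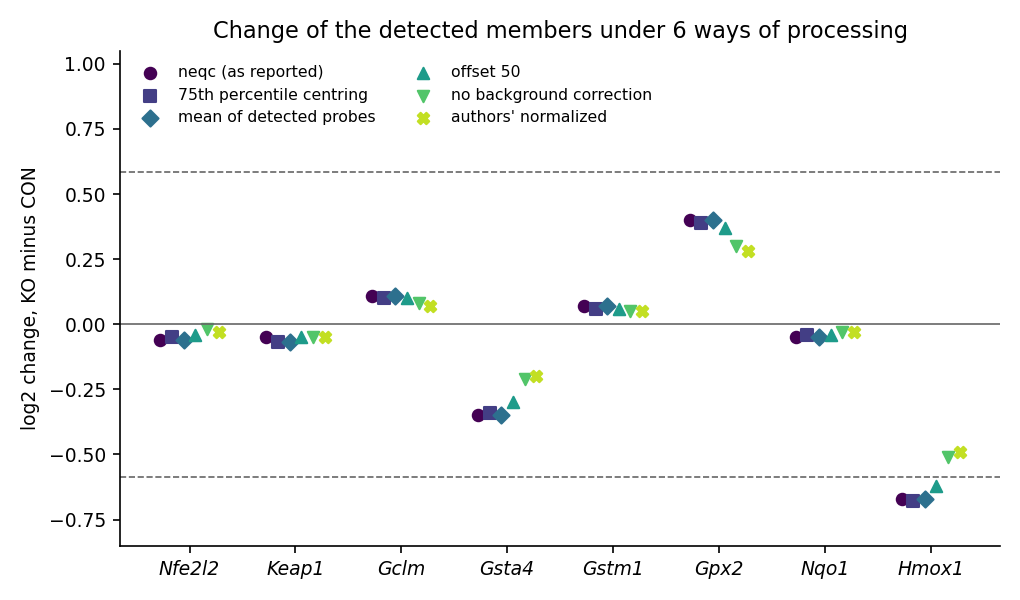
Log2 change (KO minus CON) of the 8 detected members under 6 ways of processing, with dashed lines at 1.5-fold. Hmox1 lies below the lower line except without background correction (-0.51) and in the authors' normalized values (-0.49).

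A dark probe did not show that a transcript was missing. Nfe2l2, Nqo1 and Gstm1 each had 1 detected probe and 1 probe at background in both pools. The values of Gclc and Txnrd1, which had no second probe, therefore say nothing of these transcripts beyond the reading of those probes.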

How the data were processed

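Total RNA of 2 epidermal pools, 1 CON and 1 KO, was biotin labelled and read on bead arrays, per the labels' protocols; groups follow the titles. The submitters' processing notes name GenomeStudio 2011.1. Linear bead intensity values, non-normalized and normalized, were deposited by the authors. Per the file headers, each signal came with a detection p-value. The normalized table equalled the series matrix (0 probes differed), and its sorted signals matched within 0.3 between arrays.

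The non-normalized intensities were processed with neqc (limma 3.58.1, R 4.3.3): normal-exponential background correction from the detection p-values, offset 16, quantile normalization and log2. The steps were tested on simulated data. Tables were summarised in Python 3.11.15 with pandas 2.3.3. Names were updated through a RefSeq table (GRCm38.p6), and 321 of 25697 probes kept the file's name. A gene was its brightest probe. A gene detected in 1 pool got a lower bound, its signal over whichever was higher in the other pool, its own reading there or the lowest detected signal. With 1 pool per group no p-value was computed. The members, lists and thresholds were chosen with earlier results of these data known. Named genes were the members, Vdr, up to 4 further detected genes with the largest absolute change in each list of at least 4 detected genes, and any listed gene changed 1.5-fold. Glrx, Cul3, Bach1, Srxn1, Hmox2, Blvra, Fth1, Ftl1, Cyba and Xdh were named for their role after their values were seen. A further red cell marker is not reported here. Alternatives were the authors' normalized values, no background correction, offset 50, centring on the 75th percentile, the mean of detected probes, other detection filters and a 2-fold rule.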

Additional observations from a re-analysis of the deposited data

How the results depend on the processing

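The depth of an array is its signal over background, and dim probes such as those of Nfe2l2, Sod3 and Slc7a11 limit what can be read. No paired analysis was possible because each group held 1 pool. The median log2 change of the members stayed between -0.054 and -0.027 and that of the listed genes between 0.004 and 0.029 under every setting run. The count of lower members went from 1 to 0 in the authors' normalized values, without background correction and at 2-fold, and no member was higher under any setting. In the authors' normalized values 48 of all genes were higher and 15 lower, with 0 listed genes higher and 0 lower. Without background correction these counts were 50, 23, 0 and 0, and with an offset of 50 they were 102, 57, 0 and 1. At 2-fold they were 40, 12, 0 and 0. Over genes detected in both pools 114 of all genes were lower, and 0 listed genes were higher, since Slc7a11 left the set. Of all calls 57.7% were higher as reported, against 76.2% in the authors' normalized values, 68.5% without background correction and 76.9% at 2-fold. In the authors' normalized values, without background correction and with an offset of 50, Slc7a11 did not pass (log2 changes of 0.31, 0.25 and 0.47), nor did Sod3 (-0.22, -0.20 and -0.40). Hmox1 did not pass in the authors' normalized values (-0.49) or without background correction (-0.51). Leaving in background or adding an offset in both pools shrinks a log2 ratio by construction. Hmox1, Sod3 and Slc7a11 kept their sign under the 5 alternatives run for single genes. Each of these genes has a single probe, so the mean over detected probes repeats its reported value by construction. Rbx1 went from 0.54 to 0.24 and Nqo2 from 0.20 to 0.35 with the mean over detected probes.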

Other observations

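Genes that produce oxidants were mostly dark in both pools. Of 10 such genes on the array 2 were detected. Cyba, the small membrane subunit of the NADPH oxidases, read 345.9 in the CON pool and 451.1 in the KO pool, for a log2 change of 0.49, and Xdh, xanthine dehydrogenase, read 754.7 and 730.1, a log2 change of -0.09.

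The metallothioneins, small metal-binding proteins that also scavenge oxidants, did not move together. Mt4, the form of differentiated stratified epithelia, read 512.1 in the CON pool and 403.4 in the KO pool, for a log2 change of -0.54 (1.45-fold). Mt1 read 11891.2 and 14346.1, a log2 change of 0.20, Mt2 had a change of -0.10, and Slc30a1, a zinc exporter gene, of 0.07. None of the 4 detected genes passed the 1.5-fold rule.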
